A study of Mus musculus with 6 samples.

Results

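Small GTPase genes of 3 kinds, 9 in all, were followed in cultured mouse hippocampal neurons after brief treatment with forskolin, which is known to raise cyclic AMP (cAMP): Arl4a, Arl4c and Arl4d of the Arl4 group, Gem, Rrad, Rem1 and Rem2 of the RGK group, and the pair Rnd3 and Rhob. The 9 genes were taken by symbol from a table of 37411 gene rows, and all 9 were found there. They had been selected on the measured forskolin against DMSO values, so those values are given as a description and carry no test of their own. Hippocampi of newborn (P0) CD-1 IGS pups had been cultured for 16 days in vitro. The cultures then received 50 µM forskolin, a direct activator of adenylyl cyclase, or the same volume of dimethyl sulfoxide (DMSO) alone, for 30 min. Each group had 3 libraries, numbered 1, 2 and 3 for DMSO and 4, 5 and 6 for forskolin. The labels do not say whether the libraries came from separate cultures or pups, so p-values measure only the spread between these libraries, which may be technical.

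Small GTPases are switches that signal in their GTP-bound form. Arl4 proteins belong to the Arf family; at the plasma membrane they recruit cytohesins, exchange factors that activate Arf6, and so act on membrane traffic and the actin cytoskeleton. RGK proteins (Rad, Gem, Rem and Rem2) bind the beta subunits of voltage-gated calcium channels and reduce calcium current. Rnd3 does not hydrolyse GTP and opposes RhoA signalling, whereas RhoB is a short-lived relative of RhoA found on endosomes. Several of these genes are known to be induced early after stimulation, and Rem2 is known in neurons as an activity-regulated gene that limits dendritic branching.

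Total counts ranged from 28342764 to 47548379 per library. The neuron markers were present in every library, and their 14 genes summed to 4450 to 5690 CPM (counts scaled to a common library total) without forskolin; libraries 4, 5 and 6 had 3330, 3580 and 5240 CPM. The 12 astrocyte markers summed to between 7350 and 9010 CPM, so the cultures also held many glial transcripts. Above every DMSO library lay 8, 7 and 2 of the 12 astrocyte markers in libraries 4, 5 and 6. By fitted level 7 of the 12 were higher with forskolin and 5 lower. Libraries 4 and 5 stood apart from library 6. The 12 microglia markers summed to 7.23 to 14.4 CPM in the DMSO libraries and to 209, 376 and 9.79 CPM in libraries 4, 5 and 6, and 12, 11 and 2 of the 12 lay above every DMSO library there. None of them was at 0 counts in any library. The 12 oligodendrocyte lineage markers summed to 835 to 936 CPM in DMSO and to 1140, 1620 and 652 CPM in libraries 4, 5 and 6, with none at 0. Of these 12, 7 had a higher fitted level with forskolin, among them the myelin gene Mbp, and 5 a lower one (Pdgfra, Cspg4, Olig1, Olig2 and Sox10). The 12 vascular and meningeal markers ranged from 109 to 252 CPM in DMSO and from 99.2 to 315 CPM with forskolin, and Cldn5 was at 0 in every DMSO library. On the mean log2 CPM of a list, the exact two-sided permutation test of the groups gave p = 0.3 for microglia and p = 0.2 for neurons, where 3 against 3 cannot go below 0.1. Of the 14 neuron markers 11 had a lower mean with forskolin. For 7 of them the groups did not overlap, all lower, beside 16.2% of all tested genes. On all libraries edgeR called 2 neuron markers lower and 0 higher, and without library 6 it called 8 lower, beside 17.1% of all genes. Of the microglia markers it called 0, and 11 as higher without library 6, beside 16.5%. In such bulk samples fewer cells of a type and less RNA per cell cannot be told apart.

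Arl4d was the member that stood out. Of the 9 genes, 8 passed the low-count filter, and in edgeR's quasi-likelihood fit over 16233 genes 1 of them, Arl4d, passed at a threshold of 0.05 on p-values adjusted by the method of Benjamini and Hochberg, beside 1.51% of all tested genes (0.172% higher and 1.34% lower). Because the genes were chosen with this comparison known, nothing is read from that count. Groups did not overlap for 3 members (Arl4d, Arl4a and Rnd3), all higher with forskolin. Of all tested genes, 10.2% did not overlap and were higher, 16.2% were lower, and 26.4% did not overlap in either direction. The median log2 fold change of the 8 tested members was 0.80, with 5 positive and 3 negative, beside a median of 0.02 over all tested genes.

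**Figure D1:**
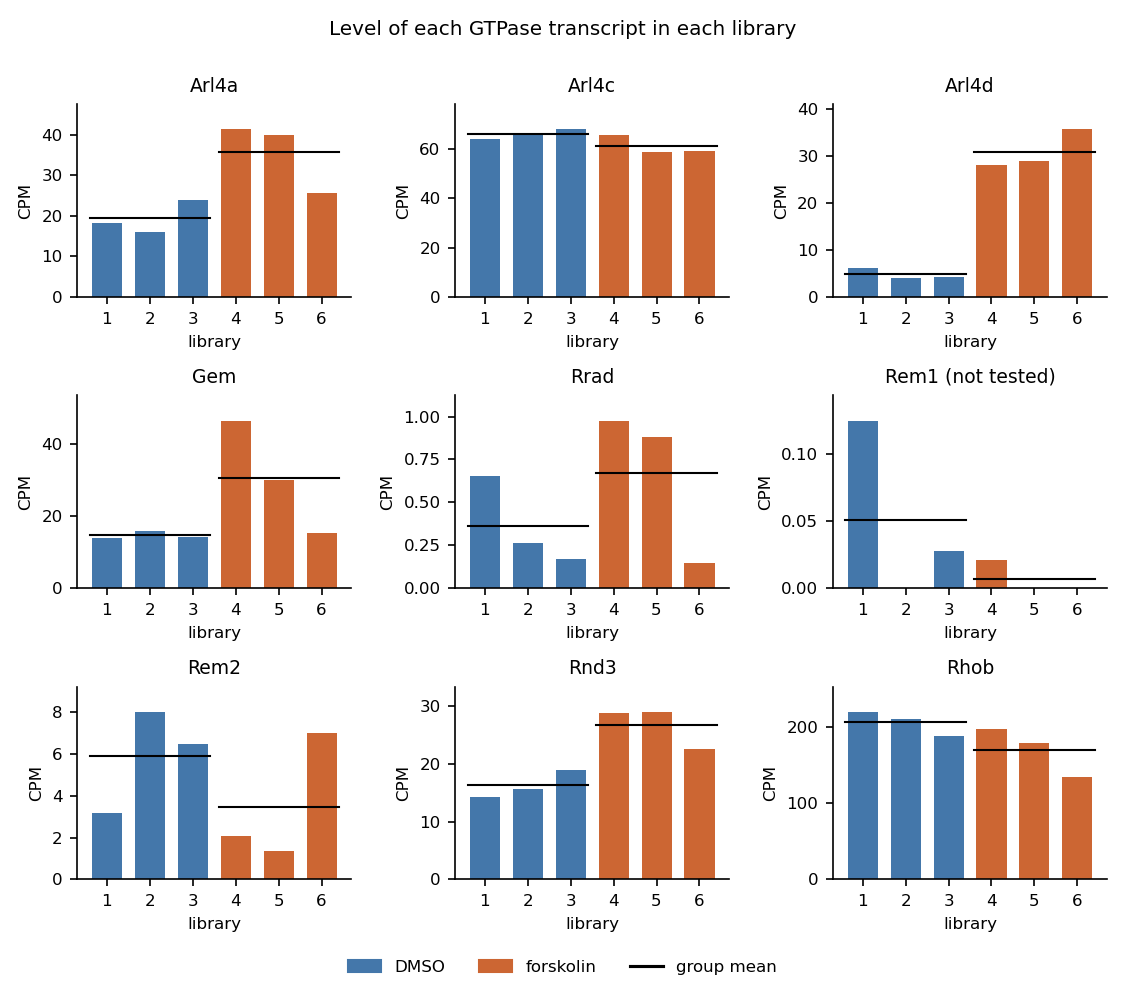
Level of each of the 9 genes in CPM (y axis, from 0, a different scale in each panel) in the 6 libraries (x axis), as bars with DMSO in blue, forskolin in orange and a line at each group mean. Arl4d sits between 28.1 and 35.6 CPM in all 3 forskolin libraries, above every DMSO library, whereas Gem and Rrad are high in libraries 4 and 5 and not in library 6.

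Within the Arl4 group, Arl4d held 195, 126 and 155 counts in DMSO libraries 1, 2 and 3, and 1326, 981 and 1194 counts in forskolin libraries 4, 5 and 6. On the CPM scale these were 6.08, 4.13 and 4.34 against 28.1, 28.8 and 35.6. All 3 forskolin libraries were several times higher than any DMSO library, and library 6 was the highest. The means were 4.85 ± 1.07 and 30.9 ± 4.14 CPM (SD, n = 3), a ratio of 6.37, and the fitted log2 fold change was 2.67 ± 0.21 (SE). It lay at the 99.2 percentile of the fold changes of all tested genes. Microglia markers in library 6 were within the DMSO range, at 9.79 CPM, and the ratio of Arl4d to its DMSO mean was 7.34 in that library, against 5.80 and 5.93 in libraries 4 and 5. The authors' deposited table lists 132 genes with log2 fold changes from 1.5 upward, and Arl4d is the 1 member in it. The authors' deposited table gives it rank 16, a log2 fold change of 2.36 with a standard error of 0.22, and a mean normalised count of 584. No other member reaches 1.5 in the edgeR fit on all libraries. In some other settings Rrad, a gene of low counts, did, at most 1.65 without DMSO library 1.

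Arl4d is annotated at chr11:101665541-101667832 on the plus strand of GRCm38, with 1 transcript of 1382 bases in 2 exons and 201 codons. Its promoter is printed because it holds a complete cAMP response element (CRE), TGACGTCA, the palindrome to which CREB and its relatives are known to bind. The match lies at positions -26 to -19 from the start site, next to a CCAAT box on the other strand at -42 to -38. The stretch below is the 250 bases before the RefSeq start site (GRCm38.p6), read 5′ to 3′ on the gene's strand, with the CRE and the CCAAT box in capitals.
Arl4d, chr11:101665291-101665540, plus strand: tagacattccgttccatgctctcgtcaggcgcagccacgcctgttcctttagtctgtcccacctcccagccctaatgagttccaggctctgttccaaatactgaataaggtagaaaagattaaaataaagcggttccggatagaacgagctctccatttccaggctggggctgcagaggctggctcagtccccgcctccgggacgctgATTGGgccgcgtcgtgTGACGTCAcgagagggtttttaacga

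Windows from 250 bases before to 50 bases after the start site were searched on both strands in the RefSeq promoter table, which has 8 windows for 7 of the 9 members, all but Gem and Rrad. The full CRE occurred in 1.79% of the 32851 windows of all genes and in 1 window of the members, that of Arl4d. The CRE core, TGACG, of which every full CRE holds a copy on each strand, occurred in 20.8% of all windows. Among the members it was also found in Arl4a, at -95 to -91 from the downstream one of 2 annotated starts, in Arl4c at -198 to -194, and in Rem1 at 33 to 37. Arl4d holds another at -228 to -224. The AP-1 site TGANTCA, found in 7.81% of all windows, occurred at -248 to -242 from the upstream start of Arl4a. A match is a description of the letters and not a bound site, and a window without one says nothing of a factor that may act elsewhere.

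The genes most like Arl4d over the 6 libraries were found by the root mean square difference of log2 CPM, centred on the DMSO mean, among 13953 tested genes with a mean of at least 1 CPM. They were 1700016P03Rik, the host transcript of the microRNAs Mir132 and Mir212 (difference 0.35), Dusp1, a phosphatase that inactivates MAP kinases (0.37), and Btg2, an antiproliferative early response gene (0.38). The tenth nearest gene differed by 0.62. Dusp1 went from 37.8, 22.9 and 22.5 CPM to 180.0, 185 and 112 CPM, and Btg2 from 88.8, 46.8 and 47.8 CPM to 359, 373 and 238 CPM. Both peaked in libraries 4 and 5, whereas 1700016P03Rik, with 1.12, 0.623 and 0.841 CPM in DMSO and 6.73, 7.19 and 9.73 CPM with forskolin, was highest in library 6, as Arl4d was. Of these 3 genes, Dusp1 and Btg2 had promoter windows that were searched, and 1700016P03Rik did not. Each of the 2 windows holds 1 full CRE, at -143 to -136 in Dusp1 and at -166 to -159 in Btg2. These genes were picked by their likeness to Arl4d, and the genes most like other members were not searched. Nothing is therefore read from the 2 matches.

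**Figure D2:**
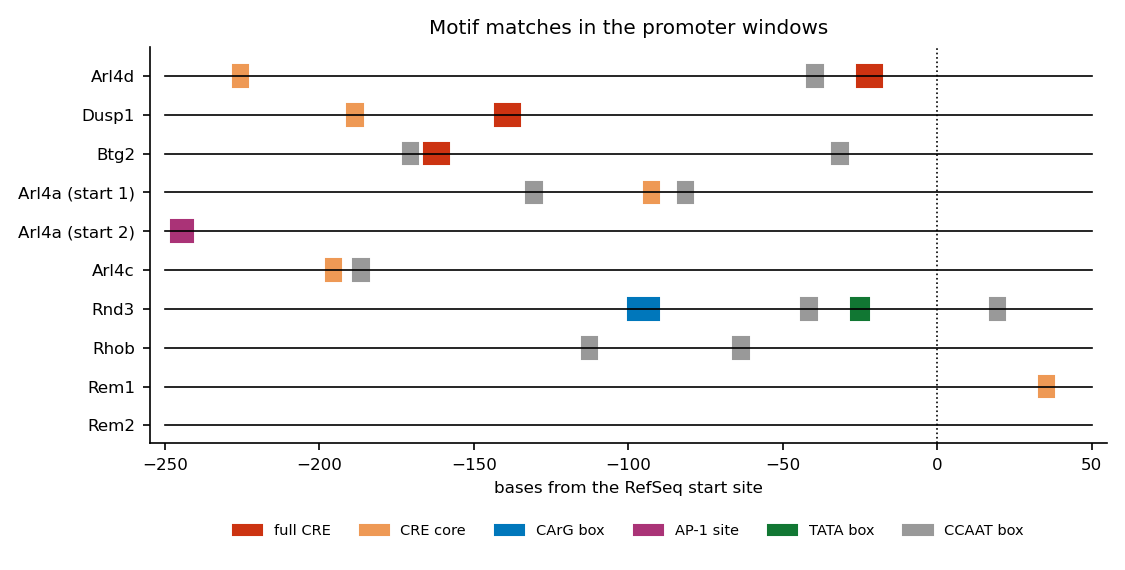
Positions of motif matches (coloured boxes) in the promoter windows of 7 members and of Dusp1 and Btg2, with the x axis in bases from the RefSeq start site (dotted line). The full CRE appears in Arl4d, Dusp1 and Btg2, closest to the start in Arl4d, while Rnd3 holds a CArG box and a TATA box and Rem2 holds none of the 6 motifs.

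Arl4a (chr12:40005447-40038025, minus strand, 200 codons) stood at 18.2, 16.0 and 24.0 CPM in the 3 DMSO libraries and at 41.3, 40.0 and 25.7 CPM in libraries 4, 5 and 6. Libraries 4 and 5 stood at 2.13 and 2.06 times the DMSO mean, and library 6 only just cleared DMSO library 3 (ratio 1.32). Microglia markers were at 209, 376 and 9.79 CPM in libraries 4, 5 and 6, and their part in the Arl4a values was not tested. The log2 fold change was 0.88 ± 0.23 (SE). The genes closest in pattern to Arl4a were Zbtb1, a transcriptional repressor (difference 0.07), Rnft1 (0.09) and the nuclear noncoding RNA Malat1 (0.10). After removal of each library's trend on GC content (the GC trend) Arl4a had a log2 fold change of 0.64; its longest transcript has 44.7% GC.

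Arl4c (chr1:88673125-88702221, minus strand, 192 codons) was the most abundant of the group before treatment and stayed close to its DMSO level. It had 64.0, 65.9 and 67.7 CPM in DMSO and 65.4, 58.6 and 58.9 CPM with forskolin. Library 4 lay inside the DMSO range and libraries 5 and 6 just below it, and the log2 fold change was -0.11 ± 0.10 (SE).

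The 3 Arl4 genes together therefore differed in make-up between the groups. Divided by the length of the longest annotated transcript, their summed level was 25.0, 23.6 and 26.2 CPM per kb in DMSO and 47.2, 45.7 and 47.0 CPM per kb with forskolin. Arl4c made up 66.2 ± 3.32% of this sum in DMSO (SD, n = 3) and 32.7 ± 1.75% with forskolin. Arl4d made up 14.1 ± 3.05% and 47.8 ± 6.15%, and Arl4a 19.7 ± 3.20% and 19.5 ± 4.83%. Arl4d thus went from the least to the most abundant of the 3 in every forskolin library, on a per-length scale that takes the longest transcript for each gene.

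**Figure D3:**
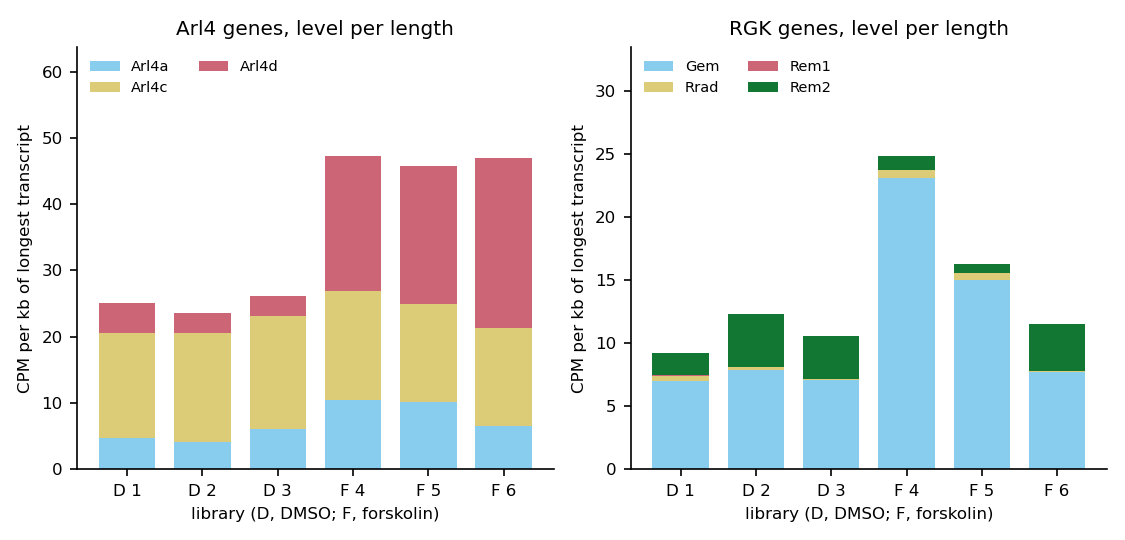
Level per length (CPM per kb of the longest annotated transcript, y axis from 0) of the Arl4 genes on the left and the RGK genes on the right, stacked by gene, in DMSO libraries 1 to 3 (D) and forskolin libraries 4 to 6 (F). The Arl4 sum is 45.7 to 47.2 in all 3 forskolin libraries, with Arl4d as the largest part, while the RGK sum is raised in libraries 4 and 5 and is 11.5 in library 6, within the DMSO range of 9.18 to 12.3.

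In the RGK group the members parted. Gem (chr4:11704457-11714752, plus strand, 295 codons) was the most abundant, with 450, 485 and 507 counts in DMSO libraries 1, 2 and 3, and 2185, 1024 and 514 counts in forskolin libraries 4, 5 and 6. In CPM these were 14.0, 15.9 and 14.2 against 46.4, 30.1 and 15.3. Libraries 4 and 5 were above every DMSO library, by ratios to the DMSO mean of 3.15 and 2.04, and library 6 was inside the DMSO range, at 1.04. The log2 fold change was 1.06 ± 0.37 (SE), 1.36 without library 6 and 0.62 without library 4. Libraries 4 and 5 are also those with 209 and 376 CPM of microglia markers, against 7.23 to 14.4 CPM in DMSO and 9.79 CPM in library 6; the part of other cells in the Gem values was not tested. The genes closest in pattern to Gem were Gm38228 (difference 0.10), the interferon-induced gene Nmi (0.11) and Bcas1, a gene of the oligodendrocyte lineage (0.14). Bcas1 had 67.8, 41.5 and 24.6 CPM in libraries 4, 5 and 6.

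Rem2 (chr14:54476100-54480431, plus strand, 341 codons) went the other way in the same libraries. It had 102, 244 and 230 counts in DMSO and 97, 47 and 235 counts with forskolin, or 3.18, 8.0 and 6.45 CPM against 2.06, 1.38 and 7.01 CPM. Libraries 4 and 5 lay below every DMSO library, library 6 lay between DMSO libraries 2 and 3, and DMSO library 1 was the lowest of its group. The log2 fold change was -0.76 ± 0.65 (SE) with all libraries. It was -1.78 without library 6, -0.34 without library 5, -0.49 without library 4 and -0.42 without DMSO library 2. The summed neuron markers were lowest in the same libraries 4 and 5, at 3330 and 3580 CPM; their part in the Rem2 values was not tested. The 120 bases before the Rem2 start site hold none of the 6 motifs and are shown as a description of the letters. Most windows lack a full CRE, which occurs in 1.79% of all of them. A link between motifs and the Rem2 values was not tested.
Rem2, chr14:54475980-54476099, plus strand: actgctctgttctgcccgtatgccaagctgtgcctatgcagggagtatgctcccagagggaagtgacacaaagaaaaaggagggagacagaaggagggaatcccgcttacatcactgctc

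Rrad (chr8:104628070-104631327, minus strand, 307 codons), known from muscle, was near the limit of detection. It had 21, 8 and 6 counts in DMSO and 46, 30 and 5 counts with forskolin, or 0.655, 0.262 and 0.168 CPM against 0.976, 0.881 and 0.149 CPM. Libraries 4 and 5 were the highest and library 6 the lowest of all, and the log2 fold change of 0.90 ± 0.76 (SE) was little larger than its error. It was 1.65 without DMSO library 1 and 0.51 without library 4. An antisense gene, Gm33023, overlaps Rrad over 496 bases, and whether the counting used strand is not given in the sources used here, so its reads cannot be told apart. Rem1 (chr2:152626951-152635198, plus strand, 297 codons), known from heart, had 4, 0 and 1 counts in DMSO and 1, 0 and 0 counts with forskolin. It did not pass the low-count filter. No fold is given, since both group means are under the limit that a count of 0 allows, 3 counts or 0.0637 to 0.0984 CPM at these depths (counting error only).

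Per length, Gem made up 69.0 ± 6.36% of the RGK sum in DMSO (SD, n = 3). With forskolin it was 93.1, 92.1 and 66.7% in libraries 4, 5 and 6. Rem2 was 18.4, 34.4 and 32.2% in DMSO and 4.40, 4.50 and 32.5% in libraries 4, 5 and 6. Both genes in library 6 were thus at their DMSO shares, in contrast to the Arl4 group, where library 6 had the highest Arl4d share, 54.8%.

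Rnd3 (chr2:51130438-51149111, minus strand, 244 codons) had 14.3, 15.7 and 18.9 CPM in DMSO and 28.8, 29.0 and 22.5 CPM with forskolin. The groups did not overlap, with ratios to the DMSO mean of 1.77, 1.78 and 1.38 in libraries 4, 5 and 6, and the log2 fold change was 0.72 ± 0.17 (SE). Rnd3 has the lowest GC content of the members, 42.7%, and its log2 fold change was 0.38 after removal of the GC trend. The higher libraries for Rnd3, 4 and 5, are those with 209 and 376 CPM of microglia markers against 9.79 CPM in library 6, and the part of these markers was not tested. Rhob (chr12:8497661-8500009, minus strand, 196 codons in a single exon) was the most abundant member. It had 220.0, 211 and 188 CPM in DMSO and 198, 179 and 134 CPM with forskolin. Library 6 was the lowest at a ratio of 0.648 to the DMSO mean, library 4 lay inside the DMSO range, and the log2 fold change was -0.28 ± 0.17 (SE). It was -0.15 without library 6, -0.40 without library 4 and -0.12 after removal of the GC trend. No forskolin library of Rhob, a gene known for early induction in other cells, lay above the DMSO range at 30 min.

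The promoters of Rnd3 and Rhob are printed side by side because both genes are known as early response genes. Whether the motifs bear on the values of either gene was not tested. The 120 bases before each RefSeq start (GRCm38.p6) are given 5′ to 3′ on the gene's strand. Capitals mark a CArG box, the element bound by serum response factor, a TATA box (TATAAA) and CCAAT boxes on either strand. The CArG box lies at -100 to -91 from the Rnd3 start, and the TATA box at -28 to -23. The CArG box occurs in 1.63% of all windows, the TATA box in 13.6% and CCAAT in 37.4%.
Rnd3, chr2:51149112-51149231, minus strand: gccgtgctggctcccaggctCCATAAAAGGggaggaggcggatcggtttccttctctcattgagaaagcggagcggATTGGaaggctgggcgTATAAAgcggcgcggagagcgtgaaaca
Rhob, chr12:8500010-8500129, minus strand: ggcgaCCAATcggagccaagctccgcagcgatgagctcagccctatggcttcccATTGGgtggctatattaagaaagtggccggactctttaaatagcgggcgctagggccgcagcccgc

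**Figure D4:**
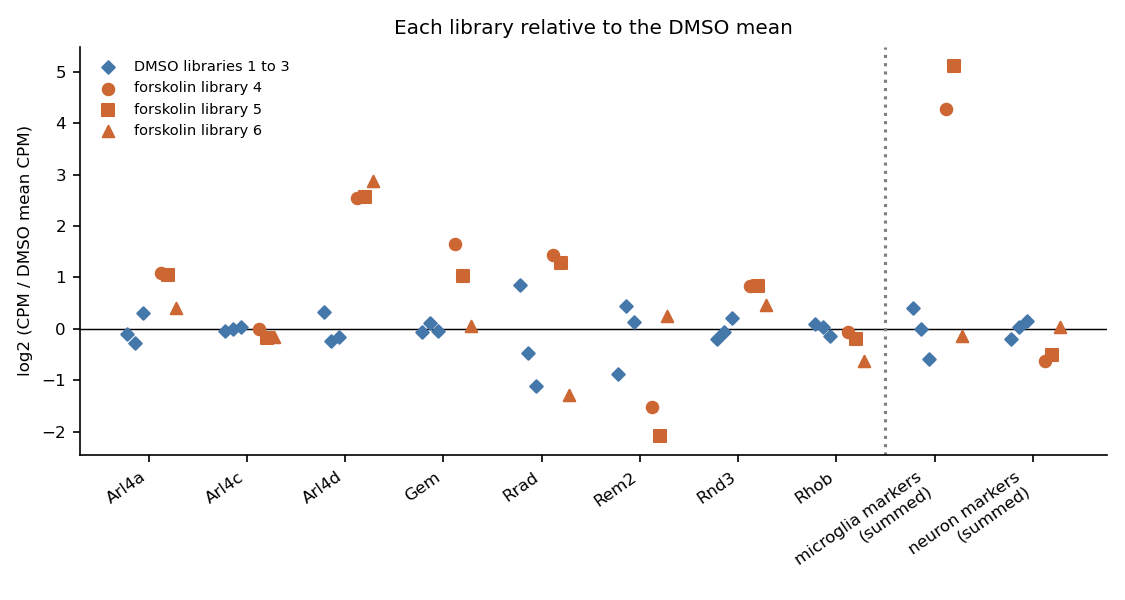
Log2 ratio of CPM to the DMSO mean (y axis) for the 8 tested genes and, right of the dotted line, the summed microglia and neuron markers, with 1 point per library. Library 6 (triangles) is the highest of all for Arl4d, lies near the DMSO libraries for Gem, Rem2 and both marker sums, and is the lowest for Rhob.

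Ordered by level per length in the DMSO libraries, Rhob came first at 87.9 ± 7.01 CPM per kb, then Arl4c at 16.5 ± 0.473 and Gem at 7.34 ± 0.513 (SD, n = 3 for each). Rnd3 (5.49 ± 0.805) and Arl4a (4.94 ± 1.05) did not differ beyond their spread, nor did Arl4d (3.51 ± 0.775) and Rem2 (3.12 ± 1.31). Rrad (0.230 ± 0.164) and Rem1 (0.0306 ± 0.0394) came last. With forskolin Arl4d had the second highest mean, 22.3 ± 3.0 CPM per kb, and lay above Arl4c (15.3 ± 0.965) in every library. Gem (15.2 ± 7.74) overlapped both and was above Arl4d in library 4, and Arl4a (9.07 ± 2.20) and Rnd3 (9.02 ± 1.24) were again alike within their spread.

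The calls on the members depended on the tool and on library 6. DESeq2 on the same libraries passed 4 of the 8 (Arl4a, Arl4d, Gem and Rnd3) at an adjusted p-value under 0.05, beside 10.9% of all genes (4.90% higher and 6.03% lower). Limma, run with library quality weights, which gave library 6 a weight of 0.156, passed 6 (those 4, Rem2 and Rrad), beside 41.9%. Without library 6 edgeR passed 5 (the same 4 and Rem2), beside 33.6% (16.5% higher and 17.1% lower). With the GC trend removed edgeR passed 0 members and 0.0% of all genes (1812 genes had an unadjusted p-value under 0.05), with Arl4d at a log2 fold change of 2.84. With the GC trend removed and library 6 left out it passed 6, beside 41.6% (12.4% higher and 29.3% lower). Leaving out any 1 of the other libraries also ended the Arl4d call, with 0 genes of the whole table called and 1945 to 3216 at an unadjusted p-value under 0.05. Its log2 fold change was 2.58 to 2.89 in those fits.

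Other small GTPases and known partners were also described at the RNA level, in lists drawn up by family and binding partner. In the Arf and Arl family, 23 of 26 genes were tested, with a median log2 fold change of 0.01; 0 passed in edgeR as higher and 1 as lower. At an unadjusted edgeR p-value under 0.05 there were 4 higher and 3 lower, where all tested genes had 22.3% under that value. DESeq2 passed 1 higher and 3 lower, beside 4.9% and 6.03% of all tested genes. The gene that edgeR passed was Arf5, an Arf of the early secretory pathway, which fell from 107 ± 4.94 to 64.5 ± 6.66 CPM (SD, n = 3). The edgeR adjusted p was 0.0406, at a log2 fold change of -0.74 ± 0.11 (SE). Its value after removal of the GC trend was -0.32 (edgeR adjusted p = 0.461), and without any 1 library other than library 6 it did not pass. Arf6, named for its role downstream of Arl4 and with its values already seen, had 50.8 CPM in DMSO and 55.9 CPM with forskolin, which gave a fold change of 0.14 on the log2 scale (edgeR adjusted p = 0.618), and 0.54 after removal of the GC trend (edgeR adjusted p = 0.342).

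In the Ras family 0 of 29 passed in edgeR, 3 higher and 4 lower had an unadjusted p-value under 0.05, and DESeq2 passed 3 higher and 3 lower. The median was -0.15. Rasl11a had the smallest p-value, with 14.9, 12.8 and 12.4 CPM in DMSO and 30.6, 22.3 and 24.1 CPM with forskolin, which gave a fold change of 0.94 ± 0.17 (SE) on the log2 scale (edgeR adjusted p = 0.0526). All 3 forskolin libraries of Rasl11a, library 6 included, lay above every DMSO library.

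**Figure D5:**
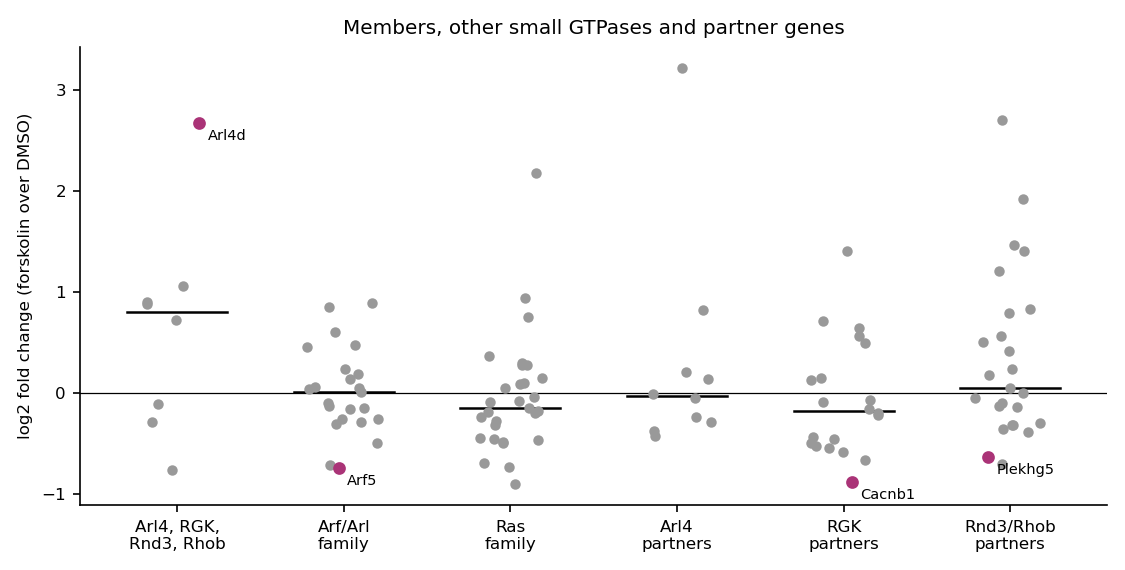
Log2 fold change of forskolin over DMSO (y axis) for each tested gene (points) of the Arl4, RGK, Rnd3 and Rhob set and of 5 lists of related GTPases and partners, with a bar at each median. Points in purple have an edgeR adjusted p-value under 0.05 and are named: Arl4d is the one called higher, and Arf5, Cacnb1 and Plekhg5 are called lower.

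Among the partners, 0 of the 10 Arl4 partners passed in edgeR, 1 higher and 1 lower had an unadjusted p-value under 0.05, and DESeq2 passed 1 in each direction. Of all tested genes, 22.3% had such an unadjusted p-value, and DESeq2 passed 4.9% as higher and 6.03% as lower. The smallest p-value was that of Cyth1, a cytohesin, with 67.9 ± 2.72 and 52.6 ± 3.17 CPM (SD, n = 3). The edgeR adjusted p was 0.121, at a log2 fold change of -0.37. Cyth1 passed in DESeq2 (DESeq2 adjusted p = 0.0308) and in edgeR without library 6 (edgeR adjusted p = 0.0134). After removal of the GC trend it had -0.23 (edgeR adjusted p = 0.564). Of the 20 RGK partners, 1 passed as lower and 0 as higher, 2 higher and 7 lower had an unadjusted p-value under 0.05, and DESeq2 passed 1 higher and 4 lower. That gene was Cacnb1, a calcium channel beta subunit of the kind RGK proteins bind, which fell from 69.4, 85.3 and 77.5 CPM to 40.0, 37.2 and 49.4 CPM, which gave a fold change of -0.88 ± 0.15 (SE) on the log2 scale (edgeR adjusted p = 0.0445). After removal of the GC trend the value was -0.43 (edgeR adjusted p = 0.522), and the call was lost without any 1 library other than library 6. Neuron markers were lower beside it, with 11 of 14 lower, 2 called and 7 not overlapping, against 16.2% of all tested genes. Their part in the Cacnb1 values and in the 7 lower partners was not tested. Both lists hold Camk2a, which is 1 of those 7. The other beta subunits, also named with their values seen, did not pass in edgeR on all 6 libraries: log2 fold changes were -0.66 for Cacnb3, -0.22 for Cacnb2 and 0.50 for Cacnb4. DESeq2 passed Cacnb3 (DESeq2 adjusted p = 0.0196), and edgeR without library 6 passed Cacnb3 and Cacnb2 (edgeR adjusted p = 0.00535 and 0.0310). After removal of the GC trend the log2 fold changes were -0.07 for Cacnb3, -0.70 for Cacnb2 and 0.08 for Cacnb4, and none of them passed. Of the 25 tested partners of Rnd3 and Rhob, 1 passed in edgeR as lower and 0 as higher, whereas 9 higher and 3 lower had an unadjusted p-value under 0.05, and DESeq2 passed 6 higher and 3 lower. Rock1, a kinase that Rnd3 binds, and Arhgap5, a GTPase-activating protein, both named with their values seen, had no overlap between the groups and were highest in libraries 4 and 5. Rock1 had 7.15 to 10.7 CPM in DMSO and 22.8, 32.0 and 12.2 CPM in libraries 4, 5 and 6, and Arhgap5 34.3 to 55.3 CPM and 182, 251 and 76.5 CPM. The summed microglia and oligodendrocyte lineage markers were also highest in libraries 4 and 5, and their part was not tested. The log2 fold changes of Rock1 and Arhgap5 were 1.41 and 1.92 (edgeR adjusted p = 0.112 and 0.0844, DESeq2 adjusted p = 0.00279 and 9.32e-05), and 0.90 and 0.93 after removal of the GC trend. Plekhg5, an exchange factor for RhoA, fell from 63.7 ± 4.07 to 41.0 ± 1.04 CPM (SD, n = 3). The edgeR adjusted p was 0.0405, at a log2 fold change of -0.63. After removal of the GC trend it was -0.20 (edgeR adjusted p = 0.624), and the call was lost without any 1 library other than library 6. With RLE size factors in place of TMM none of Arf5, Cacnb1 and Plekhg5 passed, at edgeR adjusted p-values of 0.0512, 0.0599 and 0.0579 and log2 fold changes of -0.72, -0.86 and -0.62. Without 1 library other than library 6 the log2 fold changes were -0.82 to -0.67 for Arf5, -0.92 to -0.76 for Cacnb1 and -0.68 to -0.56 for Plekhg5. With the GC trend removed and library 6 left out all 3 passed, at -0.46, -0.79 and -0.43 (edgeR adjusted p = 0.00975, 0.00527 and 0.0126).

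Some other list genes were not called by edgeR on all 6 libraries but were high in some of them, and the following were chosen after their values were seen. Cyth4 and Arhgdib, partners that are known from blood cells, had log2 fold changes of 3.22 and 2.70 (DESeq2 adjusted p = 0.00651 and 0.0126). Cyth4 had 1.62, 1.08 and 0.645 CPM in DMSO and 9.83, 20.7 and 0.597 CPM in libraries 4, 5 and 6. Arl11, which did not pass the low-count filter, had 0 counts in every DMSO library and in library 6, and 47 and 68 counts in libraries 4 and 5. All 3 were high in libraries 4 and 5 and not in library 6, as the microglia markers were, whose part in these values was not tested. Rasd1, a Ras relative known as dexamethasone-induced, had 1.22, 1.18 and 0.953 CPM in DMSO and 7.85, 4.73 and 2.66 CPM in libraries 4, 5 and 6, which gave a fold change of 2.18 on the log2 scale (edgeR adjusted p = 0.0652, DESeq2 adjusted p = 8.1e-05). All 4 passed in edgeR without library 6.

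Early response genes serve as a yardstick for the treatment. They were listed with earlier results of these data known. Of 14 such genes, 4 passed as higher in edgeR (Fos, Fosb, Dusp1 and Nr4a2), beside 0.172% of all tested genes. DESeq2 passed 8 as higher, beside 4.9%. The median log2 fold change was 1.44, beside 0.02 over all tested genes. Without library 6 edgeR passed 11 as higher, beside 16.5% of all genes, and with the GC trend removed 0. The 4 edgeR calls were also lost without any 1 library other than library 6. On the log2 scale the fold changes were 2.46 for Fos, 2.20 for Nr4a1, 1.69 for Arc and 0.63 for Egr1, with edgeR adjusted p-values of 0.0376, 0.0652, 0.0660 and 0.196. Library 6 held less Fos (447 CPM) and Nr4a1 (61.5 CPM) than libraries 4 and 5 (830.0 and 901 CPM of Fos, 137 and 138 CPM of Nr4a1). It held the most Arc, at 206 CPM against 163 and 195 CPM, and the most Arl4d. Junb (35.4 CPM) and Per1 (30.0 CPM), named with their values seen, lay below every DMSO library there, and Egr1 (115 CPM) lay below DMSO library 1 (123 CPM). DMSO library 1 was above the other DMSO libraries for several of these genes, with 91.2 CPM of Arc against 43.9 and 39.7 CPM, and it also held the most Arl4d of the DMSO libraries.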

How the data were processed

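RNA of 3 DMSO and 3 forskolin samples had been extracted with Trizol and chloroform, per the labels' protocols. The authors deposited whole-number counts per gene symbol. The submitters' processing notes name Salmon, DESeq and GRCm38 without their roles; Salmon estimates counts, so the deposited counts may be rounded estimates. The authors' deposited table of 132 genes holds 1 mean signal of normalised counts per gene, a log2 fold change with its error, a score (the test statistic) and a p-value, per the file headers. Its ranks reach 1224, so it is part of a longer table.

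Genes were filtered with filterByExpr (minimum count 10, minimum total 15) in edgeR 4.0.16, scaled by TMM, fitted with group alone over all 6 libraries (glmQLFit, glmQLFTest) and adjusted by Benjamini-Hochberg over 16233 genes, with a threshold of 0.05. R 4.3.3, limma 3.58.1 and DESeq2 1.42.0 were used for alternatives. The standard error is the absolute log2 fold change over the square root of F. CPM uses TMM-scaled totals, and log2 CPM a prior count of 2. GENCODE M21 (GRCm38), matched by symbol for 96.7% of rows, gave positions, lengths and GC content, and RefSeq gave promoters. The members and lists were chosen with earlier results of these data known. The text names all 9 members, the 3 genes most like each of the 3 members with the largest change among those with a mean count of at least 20 (which leaves out Rrad, at 19.3), the list genes that passed (or the smallest p), and Fos, Egr1, Nr4a1 and Arc; other list genes named were chosen with their values seen. Counts per library were 46 or fewer for Rrad and Rem1 and 47 or more for the other members. Alternatives were other tools, scalings, filters, removal of each library's spline trend (6 degrees of freedom) on GC content and leaving out each library. The result of 1 further list of related GTPases is not reported here; its genes are among those counted under the alternatives.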

Additional observations from a re-analysis of the deposited data

How the results depend on the processing

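No fold change of a tested member changed sign under the 15 alternatives (14 for Rrad). The ranges were 2.54 to 2.89 for Arl4d, 0.64 to 1.11 for Arl4a, -0.22 to -0.05 for Arl4c, 0.62 to 1.36 for Gem, 0.51 to 1.65 for Rrad, -1.78 to -0.34 for Rem2, 0.37 to 0.83 for Rnd3 and -0.40 to -0.11 for Rhob. Genes called higher and lower in the whole table, 28 and 217 with edgeR, were 796 and 979 with DESeq2, 3403 and 3392 with library quality weights, and 0 and 0 with the GC trend removed. Without a low-count filter 46 were higher, and with RLE factors 113 were lower. Leaving out 1 library gave 0 to 2796 higher and 0 to 2902 lower, in each case 0 except without library 6. With the GC trend removed and library 6 left out, chosen after seeing the data, there were 2094 and 4960, and the median of all genes was then -0.19, against 0.02 in the fit on all libraries and -0.09 with library size alone. Members called higher and lower, 1 and 0, became 4 and 0 with DESeq2, 5 and 1 with quality weights, 0 and 0 with the GC trend removed, 0 to 4 and 0 to 1 without 1 library, and 5 and 1 with both. Related GTPases called higher and lower, 0 and 1, became 5 and 8 with DESeq2, 14 and 23 with weights, 0 and 0 with the GC trend removed, 0 to 13 and 0 to 20 without 1 library, and 9 and 40 with both. There was 1 higher without a filter and 1 with a mean CPM of at least 1, and 0 lower with RLE and 2 with library size alone. Partner genes called higher and lower, 0 and 2, became 7 and 8, 13 and 18, and 0 and 0 under the same 3 alternatives, 0 to 12 and 0 to 18 without 1 library, and 12 and 20 with both. There was 1 higher and 1 lower without a filter, and 0 lower with RLE. The cause was not tested. The difference of mean log2 CPM for astrocyte markers, 0.05, was -0.056 with library size alone and ranged from -0.046 to 0.17 without 1 library, and that of vascular markers, 0.16, from -0.235 to 0.53. No paired analysis was possible because the libraries are numbered 1 to 6 across both groups and share no number.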
